A study of Homo sapiens with 4 samples.

Results

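The Kv4 potassium channel complex was followed in CD31+ cells through its 9 genes, taken by symbol from the 58229 genes of the deposited table. These were the pore-forming subunits KCND1, KCND2 and KCND3, the KCNIP (KChIP) proteins KCNIP1, KCNIP2, KCNIP3 and KCNIP4, and the dipeptidyl peptidase-like proteins DPP6 and DPP10. The set was chosen by the measured rise of KCNIP4, which was among the genes that rose most after HAND1 overexpression, so its difference is given as a description without a test. The other genes joined the set as its partners in the channel. The question was whether its channel partners moved with it.

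The cells came from the established human embryonic stem cell line H1 and were collected at day 8 of hematopoietic differentiation. Both groups received activin A and BMP4 first and VEGF and bFGF afterwards. Control cells (2 libraries) were set against HAND1_OE cells (2 libraries), in which the transcription factor HAND1 was overexpressed. The scheme of the study shows doxycycline given or withheld late in differentiation, whereas the labels name neither the inducer nor the vector, nor how many clones were used. Whether libraries of a group came from separate cultures is not given, so p-values measure only the spread between these libraries.

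Kv4 channels open briefly after depolarization and then inactivate, and carry the A-type current of neurons and the fast transient outward current of heart muscle. Their pore is a tetramer of KCND subunits. KChIP proteins are calcium-binding proteins of the neuronal calcium sensor family that bind the cytoplasmic end of the pore subunits. They can change the number of channels at the surface and their inactivation. DPP6 and DPP10 are single-pass membrane proteins, related to peptidases but without their activity, which also join the complex and speed its gating.

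Values are FPKM, fragments scaled to transcript length and library size, so levels of different genes can be compared per length. The spacing of the lowest values of single-exon genes, taken as the worth of 1 fragment, put depth at 19.2 to 23.3 M fragments per library. Differences are HAND1_OE minus Control in mean log2(FPKM + 1), which understates the change of low genes. They were tested with limma for the 14622 genes that reached 1 FPKM in 2 or more libraries. A gene was called at a Benjamini-Hochberg adjusted p under 0.05 over all of these. HAND1 itself was at 12.1 and 14.3 FPKM in Control, against 520 and 517 FPKM in HAND1_OE. CD31 (PECAM1) was at 95.5 and 141 FPKM in Control, against 92.0 and 160 FPKM in HAND1_OE. All 8 endothelial markers were tested, 1 (VWF) was called higher and 0 lower, with a summed level of 1220 to 1398 FPKM in Control and 1312 to 1411 FPKM in HAND1_OE. Of the 8 blood markers, 7 were tested and all 7 were called lower, and the list sum went from 372 and 555 FPKM in Control to 31.9 and 22.0 FPKM in HAND1_OE. The leukocyte marker PTPRC was under 1 FPKM in all 4 libraries.

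KCNIP4 (ENSG00000185774.14, GRCh38 chromosome 4, 20728616 to 21948799, minus strand) went from nearly silent to the most abundant gene of the complex. It stood at 0.336 and 0.269 FPKM in Control replicates 1 and 2, against 21.9 and 19.4 FPKM in the HAND1_OE replicates. Both HAND1_OE libraries lay far above both Control libraries, and replicates differed little. The mean went from 0.303 ± 0.0469 to 20.7 ± 1.77 FPKM (SD, n = 2), a ratio of 68.4 and a log2(FPKM + 1) difference of 4.06. This was the 5th largest rise of the 14622 genes. Its coding transcripts in GENCODE 29 measure 984 to 2481 nt, at which the Control values correspond to about 5.10 to 16.4 fragments per library and the HAND1_OE values to about 387 to 1270.0 fragments. The Control level therefore rests on few fragments. In bulk RNA, more or fewer cells of a type and more or less RNA per cell cannot be told apart.

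KCNIP4 spans 1220 kb and has 10 annotated transcript starts in GENCODE 29, and the gene-level values do not tell which of them was used. RefSeq gives 3 promoter windows for it. HAND1 belongs to the basic helix-loop-helix factors, a class that binds E-boxes, so the 250 bases before each start were searched for CANNTG, a palindrome that reads alike on both strands. The 3 windows of KCNIP4 and that of KCND1, its main pore-forming partner in these cells, are shown 5′ to 3′ on the strand of the gene (RefSeq, GRCh38.p14), with each match in capitals.
KCNIP4 start 1, chr4:21948773-21949022, minus strand: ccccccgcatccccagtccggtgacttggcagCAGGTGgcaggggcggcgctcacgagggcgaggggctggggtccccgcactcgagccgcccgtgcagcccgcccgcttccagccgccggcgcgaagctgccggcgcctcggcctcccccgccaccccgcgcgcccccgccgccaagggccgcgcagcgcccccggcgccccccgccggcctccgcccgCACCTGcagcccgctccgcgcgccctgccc
KCNIP4 start 2, chr4:21697741-21697990, minus strand: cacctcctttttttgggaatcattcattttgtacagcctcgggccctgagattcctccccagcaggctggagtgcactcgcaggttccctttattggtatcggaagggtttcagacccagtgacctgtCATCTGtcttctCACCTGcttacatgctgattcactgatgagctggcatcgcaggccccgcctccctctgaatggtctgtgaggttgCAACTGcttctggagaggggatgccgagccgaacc
KCNIP4 start 3, chr4:20984071-20984320, minus strand: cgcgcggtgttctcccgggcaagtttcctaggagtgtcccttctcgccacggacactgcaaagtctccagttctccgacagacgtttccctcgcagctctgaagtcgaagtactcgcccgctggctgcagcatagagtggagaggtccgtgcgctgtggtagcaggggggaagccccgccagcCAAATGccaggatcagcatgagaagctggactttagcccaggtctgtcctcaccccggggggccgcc
KCND1, chrX:48971845-48972094, minus strand: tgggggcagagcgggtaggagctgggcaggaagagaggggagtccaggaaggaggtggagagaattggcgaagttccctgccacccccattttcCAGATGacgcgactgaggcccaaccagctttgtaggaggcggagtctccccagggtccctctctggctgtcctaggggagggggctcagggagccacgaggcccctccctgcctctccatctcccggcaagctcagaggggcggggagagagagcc
The windows of KCNIP4 held 2, 3 and 1 matches and that of KCND1 held 1. Of all 35116 RefSeq windows of this length 61.8% held at least 1 match and 10.4% held 3 or more. Over the 9 genes of the complex, 16 of 22 windows held a match. The windows of DPP6 held 4, 0, 0 and 1 matches, those of KCNIP1 held 1 and 2, and those of KCNIP2 held 0 and 1.

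No rise of that kind was seen in the genes around KCNIP4. Within 1 Mb of it lay 22 other genes, of which 4 were tested and 0 were called by limma, with 0 at an unadjusted p under 0.05, which 2551 (17.4%) of all genes tested reached. SLIT2, a guidance ligand, was at 12.2 and 7.50 FPKM in Control, against 12.96 and 12.1 FPKM in HAND1_OE (difference 0.35). The receptor gene ADGRA3 was at 7.47 and 7.77 FPKM and then at 7.95 and 8.81 FPKM, with groups that did not overlap (difference 0.12, limma adjusted p = 0.792). The processed pseudogene CDC42P6 had a difference of 0.28. PACRGL overlaps the 3′ end of KCNIP4 on the opposite strand and was at 4.46 and 5.18 FPKM in Control, against 6.99 and 4.31 FPKM in HAND1_OE, so its groups overlapped. Whether counting used strand is not given in the sources used here, so reads in the overlap of both genes cannot be assigned. Of the 8 genes that overlap KCNIP4, 6 were listed at 0 in all 4 libraries, among them KCNIP4-IT1.

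**Figure D1:**
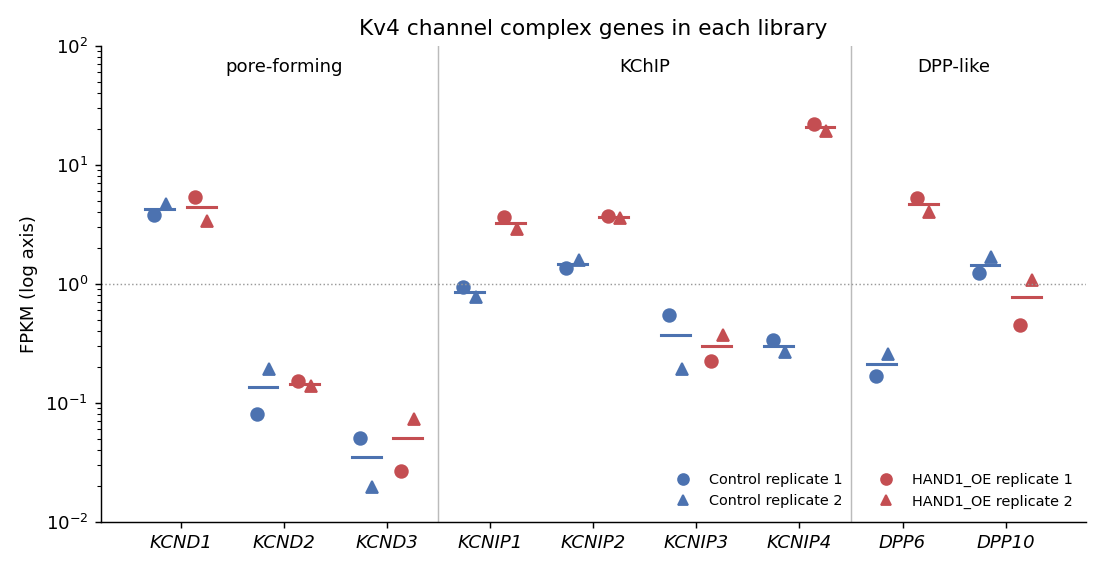
FPKM (log axis) of the 9 genes in each library, with circles for replicate 1, triangles for replicate 2, bars for group means and a dotted line at 1 FPKM. KCNIP4 was at 0.336 FPKM or less in Control and at 19.4 FPKM or more in HAND1_OE, and DPP6 at 0.256 or less and 3.98 or more, whereas the points of KCND1, KCND2 and KCND3 overlapped between groups.

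Of the other 8 genes of the complex, 5 reached the filter on low values and 2 of these were called, both higher. Among all genes tested 4.16% were called, 2.04% as higher and 2.11% as lower. KCNIP1 and DPP6 reached the filter only through HAND1_OE, since all their Control values were under 1 FPKM, so a count over the genes that passed carries no weight of its own. Groups did not overlap for 5 of the 6 tested genes, KCNIP4 included, and for 46.3% of all genes tested.

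Among the other KChIP genes only KCNIP1 was called, and the values of KCNIP2 were also higher in both HAND1_OE libraries. KCNIP1 (ENSG00000182132.13, chromosome 5, 170353487 to 170736632) was at 0.936 and 0.781 FPKM in Control, against 3.66 and 2.89 FPKM in HAND1_OE. The groups did not overlap, and the mean went from 0.858 ± 0.110 to 3.27 ± 0.544 FPKM (SD, n = 2), a ratio of 3.81. The log2(FPKM + 1) difference was 1.20 (standard error 0.208, 95% interval 0.68 to 1.71, limma adjusted p = 0.0419). As KCNIP1 reached the filter only through HAND1_OE, its call carries little weight. The call was lost without any one of the 4 libraries, with limma adjusted p-values from 0.0537 to 0.146 and differences from 1.07 to 1.33. The 4 genes that overlap KCNIP1, among them KCNMB1, were at 0.160 FPKM or less.

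KCNIP2 (ENSG00000120049.18, chromosome 10, 101825974 to 101843920) encodes the main KChIP of heart muscle. It was at 1.36 and 1.57 FPKM in Control, against 3.71 and 3.61 FPKM in HAND1_OE, so the groups lay apart and the HAND1_OE libraries were nearly equal. The mean went from 1.47 ± 0.151 to 3.66 ± 0.0719 FPKM (SD, n = 2), a ratio of 2.50. The difference of 0.92 (standard error 0.186, 95% interval 0.46 to 1.38) did not pass over all genes (limma adjusted p = 0.0633). It passed with 1 FPKM required in every library (limma adjusted p = 0.0391), after quantile normalization (0.0437), without the limma trend (0.0453) and with the replicate number as a block (0.0452). It missed the threshold at a pseudocount of 0.1 (limma adjusted p = 0.0693), after median-ratio scaling (0.0557), with all genes above 0 tested (0.231) or without any one of the 4 libraries (0.151 to 0.214). KCNIP2-AS1, the only gene that overlaps KCNIP2, was at 0.157 to 0.402 FPKM.

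KCNIP3 (chromosome 2, 95297304 to 95386083), also known as DREAM for its calcium-dependent binding to DNA, was too low to be tested. Its values were 0.551 and 0.191 FPKM in Control and 0.223 and 0.372 FPKM in HAND1_OE. The HAND1_OE values lay between the Control values. In a fit of all genes above 0 in any library its difference was -0.07 (standard error 0.171).

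No difference was detected in the pore-forming subunits. KCND1 (ENSG00000102057.9, chromosome X, 48961378 to 48971569) encodes Kv4.1 and was the only one of the 3 above the filter. It was at 3.80 and 4.65 FPKM in Control, against 5.40 and 3.36 FPKM in HAND1_OE. The HAND1_OE libraries lay on either side of both Control libraries. Its mean was 4.22 ± 0.595 FPKM in Control and 4.38 ± 1.44 FPKM in HAND1_OE (SD, n = 2). The difference was 0.02 (standard error 0.245, 95% interval -0.59 to 0.63, limma adjusted p = 0.982). Its sign rested on single libraries, with -0.10 without Control replicate 1 and -0.26 without HAND1_OE replicate 1.

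KCND2 and KCND3, which encode the Kv4.2 and Kv4.3 pores of brain and heart, were close to the limit of detection. KCND2 (chromosome 7, 120273668 to 120750331) was at 0.0804 and 0.192 FPKM in Control, against 0.152 and 0.138 FPKM in HAND1_OE. KCND3 (chromosome 1, 111770662 to 111989155) was at 0.0507 and 0.0197 FPKM in Control, against 0.0269 and 0.0735 FPKM in HAND1_OE. Over their annotated coding transcripts these values correspond to about 0.837 to 19.7 fragments for KCND2 and 1.01 to 11.0 fragments for KCND3. Groups overlapped for both, and at this depth a change within that range was not detectable.

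Of the DPP genes DPP6 rose, whereas the difference of DPP10 was negative and did not pass. DPP6 (ENSG00000130226.16, chromosome 7, 153887097 to 154894285) was at 0.166 and 0.256 FPKM in Control, against 5.31 and 3.98 FPKM in HAND1_OE. Groups lay far apart, and the mean went from 0.211 ± 0.0635 to 4.65 ± 0.944 FPKM (SD, n = 2), a ratio of 22.0. Over its annotated coding transcripts the Control values correspond to about 3.62 to 23.6 fragments per library. The ratio and the Control level therefore rest on few fragments. The log2(FPKM + 1) difference was 2.21 (standard error 0.220, 95% interval 1.66 to 2.76, limma adjusted p = 0.0102), the 59th largest rise of the 14622 genes. DPP6 reached the filter only through HAND1_OE, and the genes tested were kept when libraries were left out, so its calls there are no sign of stability. With single libraries left out, DPP6 had differences from 2.04 to 2.38. It was not called when all 29860 genes above 0 were tested (limma adjusted p = 0.153), a setting in which 0 genes were called and 3810 had an unadjusted p under 0.05. Of the 5 genes that overlap DPP6, 4 were listed at 0 in all libraries and the other reached 0.0400 FPKM at most.

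DPP10 (ENSG00000175497.16, chromosome 2, 114442299 to 115845752) was at 1.22 and 1.68 FPKM in Control, against 0.451 and 1.09 FPKM in HAND1_OE. Both HAND1_OE libraries lay below both Control libraries, as in 30.1% of all genes tested. The mean was 1.45 ± 0.321 FPKM in Control and 0.769 ± 0.449 FPKM in HAND1_OE (SD, n = 2). The difference of -0.49 (standard error 0.268, 95% interval -1.15 to 0.18) did not pass (limma adjusted p = 0.451), and it ranged from -0.75 to -0.22 with single libraries left out. DPP10-AS1, which overlaps DPP10 on the opposite strand, was at 0.102 and 0.715 FPKM in Control, against 0.169 and 0.400 FPKM in HAND1_OE.

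**Figure D2:**
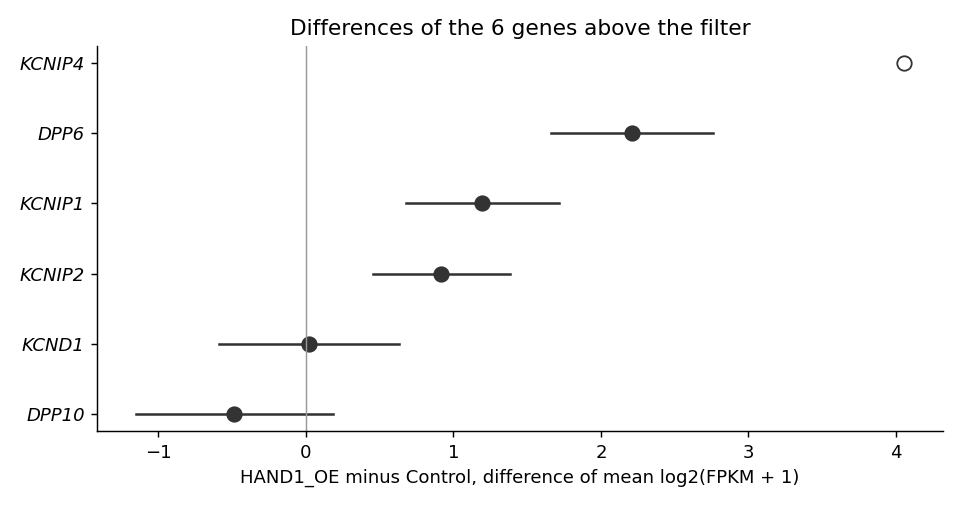
Difference between HAND1_OE and Control in mean log2(FPKM + 1) for the 6 genes above the filter, with limma 95% intervals as lines. The open circle is KCNIP4 (4.06), which was chosen for its rise and has no interval. The intervals of KCND1 and DPP10 include 0, and those of KCNIP1, KCNIP2 and DPP6 do not. The intervals are not adjusted for the number of genes tested, and KCNIP2 was not called. KCNIP1 and DPP6 reached the filter only through HAND1_OE.

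The order of the genes by level differed between the groups. In Control, KCND1 was highest, and KCNIP2 and DPP10 followed with values that overlapped. KCNIP1 came next, and below it KCNIP3, KCNIP4 and DPP6 lay between 0.166 and 0.551 FPKM, with the values of KCNIP4 inside the range of KCNIP3. In HAND1_OE, KCNIP4 stood alone at the top. DPP6 and KCND1 overlapped at 3.36 to 5.40 FPKM, and KCNIP2 lay within the range of KCND1 and overlapped with KCNIP1. DPP10, KCNIP3, KCND2 and KCND3 were all at 1.09 FPKM or less in HAND1_OE.

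The make-up of each family was then described as the share of its summed FPKM. The KCND sum was 3.93 and 4.86 FPKM in Control and 5.58 and 3.58 FPKM in HAND1_OE, with KCND1 holding 94.1% to 96.8% of it in every library. The KCNIP sum went from 3.18 and 2.81 FPKM in Control to 29.5 and 26.3 FPKM in HAND1_OE. KCNIP4 held 10.6% and 9.58% of that sum in Control and 74.3% and 73.9% in HAND1_OE, and KCNIP2, the leading KChIP gene in Control with 42.7% and 55.9%, held 12.6% and 13.7% in HAND1_OE. In the DPP family, DPP6 held 12.0% and 13.3% in Control and 92.2% and 78.5% in HAND1_OE. The leading gene of the DPP family thus differed between groups, and that of the pore-forming family did not. The KChIP shares include the values for which KCNIP4 was chosen, so the change of the leading KChIP gene follows from that choice.

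Set against the pore-forming genes, the summed KCNIP level per KCND level was 0.809 and 0.579 in Control and 5.29 and 7.36 in HAND1_OE. With KCNIP4 left out the ratio was 0.723 and 0.524 in Control and 1.36 and 1.92 in HAND1_OE, and for the DPP genes it was 0.353 and 0.398 in Control and 1.03 and 1.42 in HAND1_OE. These ratios are of RNA and carry no test. The ratio of all KCNIP genes includes the values for which KCNIP4 was chosen. The other ratios include KCNIP1 or DPP6, which reached the filter only through HAND1_OE.

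**Figure D3:**
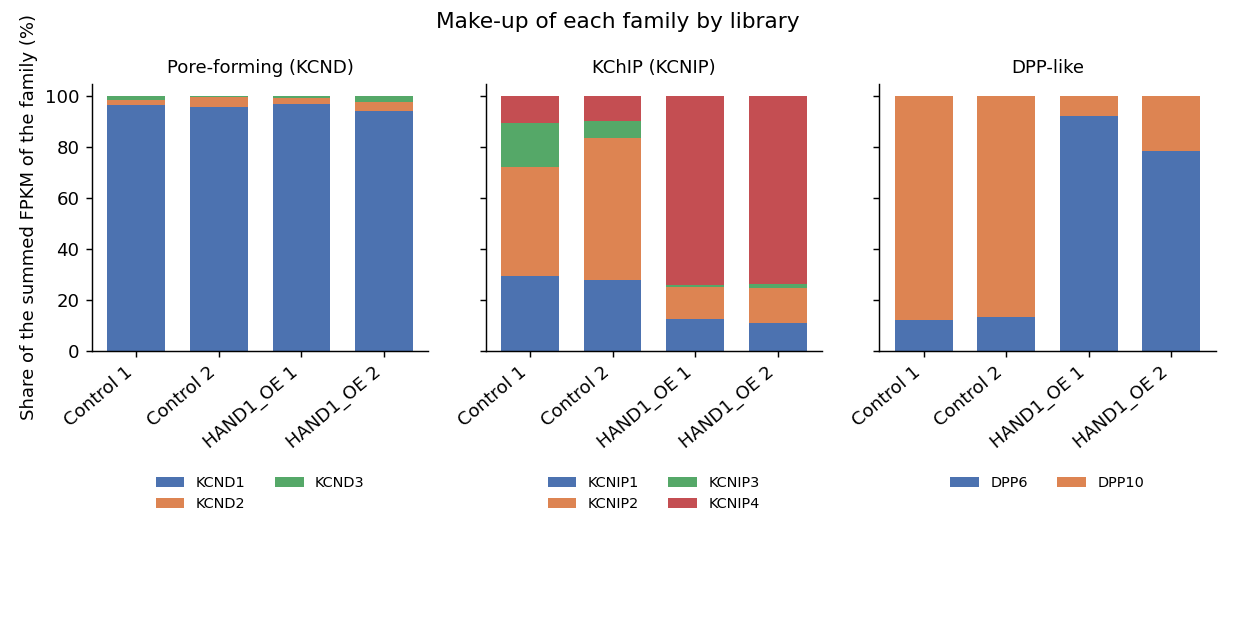
Share of the summed FPKM (%) that each gene held within its family in each of the 4 libraries. KCND1 filled at least 94.1% of its family throughout, and DPP6 at most 13.3% of its family in Control and at least 78.5% in HAND1_OE. KCNIP4, which was chosen for its rise, filled at most 10.6% of its family in Control and at least 73.9% in HAND1_OE.

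The genes whose values lay nearest to those of KCNIP4 were found by the Euclidean distance of log2(FPKM + 1) over the 4 libraries. They were BARHL1 (distance 0.39), PRRT4 (0.75), XAF1 (0.82), OBP2A (0.96) and SYNDIG1 (1.32). BARHL1, a homeobox gene of the nervous system, was at 0.132 and 0.0989 FPKM in Control, against 21.5 and 16.6 FPKM in HAND1_OE. PRRT4, which encodes a proline-rich membrane protein, was at 0.540 and 0.478 FPKM in Control, against 25.1 and 11.9 FPKM in HAND1_OE. SYNDIG1, a transmembrane protein of synapses, was at 1.53 and 0.929 FPKM in Control, against 16.8 and 12.3 FPKM in HAND1_OE. All 5 were low in Control and high in both HAND1_OE libraries, which follows from the way they were found. OBP2A has near-identical copies, which makes its values uncertain.

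The rise of KCNIP4 was then set beside its relatives among the neuronal calcium sensors, small calcium-binding proteins with EF-hands. Of 10 such genes 5 were tested and 0 were called by limma, with 3 at an unadjusted p under 0.05 (1 higher, 2 lower; 17.4% of all genes tested in either direction), and their median difference was -0.49, where that of all genes tested was -0.08. HPCAL1, the highest, was at 18.2 and 14.3 FPKM in Control, against 28.6 and 20.8 FPKM in HAND1_OE (difference 0.57, limma adjusted p = 0.260). NCS1, which can also associate with Kv4 channels, was at 6.14 and 6.93 FPKM in Control, against 7.30 and 6.85 FPKM in HAND1_OE (difference 0.10, limma adjusted p = 0.835).

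Other voltage-gated potassium channels gave calls in the lower direction. Of 37 pore-forming genes of the other Kv families 9 were tested, 0 were called higher and 3 lower. Over all genes tested, the background for this and the following lists, 2.04% were called higher and 2.11% lower. The median difference was -0.91, with 7 differences below 0 and 2 above. At an unadjusted p under 0.05 in limma were 6 genes, 1 of them higher, against 17.4% of all genes tested. KCNH2, which encodes the hERG channel that repolarizes the heart, fell from 23.1 and 23.5 FPKM in Control to 1.99 and 2.15 FPKM in HAND1_OE (difference -2.98, standard error 0.156, limma adjusted p = 0.00379). It was called without each of the 4 libraries.

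KCNC4, a Kv3 channel, went from 7.01 and 7.17 to 3.18 and 2.44 FPKM (-1.09, limma adjusted p = 0.0409). It was not called without Control replicate 1 (0.131), Control replicate 2 (0.155) or HAND1_OE replicate 2 (0.0991), after quantile normalization (0.0547) or after median-ratio scaling (0.0510). KCNG1, a silent subunit that modifies Kv2 channels, was at 6.71 and 5.51 FPKM in Control, against 6.25 and 7.44 FPKM in HAND1_OE, and its groups overlapped. The blood markers named above fell in the same comparison, and their part in these falls was not tested.

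The KCNAB and KCNE auxiliary subunits of Kv channels and the active relatives of DPP6 showed no call. Of 8 KCNAB and KCNE genes 3 were tested and 0 were called by limma, with 1 at an unadjusted p under 0.05. KCNAB2, the beta subunit of Kv1 channels, was at 6.11 and 6.06 FPKM in Control, against 4.66 and 6.19 FPKM in HAND1_OE, whereas KCNE3 was at 3.76 and 5.79 FPKM and then at 2.08 and 1.82 FPKM (difference -0.95, limma adjusted p = 0.105). Of 4 relatives of DPP6 in the dipeptidyl peptidase family 3 were tested and 0 were called, with 0 at an unadjusted p under 0.05. DPP9, a cytosolic peptidase, was at 17.6 and 17.8 FPKM in Control, against 20.6 and 17.6 FPKM in HAND1_OE, and DPP8 was at 7.59 and 12.4 FPKM and then at 6.60 and 10.1 FPKM.

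Among 42 genes of inward rectifier, two-pore domain and calcium-activated potassium channels 12 were tested, 0 were called higher and 1 lower. Their median difference was -0.54. In limma 6 had an unadjusted p under 0.05, 1 of them higher, against 17.4% of all genes tested. KCNK17, a background potassium channel and the most abundant of these genes, fell from 58.4 and 61.1 FPKM in Control to 23.2 and 29.6 FPKM in HAND1_OE (-1.16, limma adjusted p = 0.0285). It was not called without Control replicate 1 (limma adjusted p = 0.0903), Control replicate 2 (0.109) or HAND1_OE replicate 1 (0.0584). KCNMB4, an accessory subunit of the large-conductance channel, was at 21.1 and 14.5 FPKM and then at 13.1 and 10.2 FPKM (-0.56, limma adjusted p = 0.304).

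Of 35 sodium, calcium and HCN channel genes 11 were tested, 1 was called higher and 0 lower, with a median difference of -0.12. In limma 4 had an unadjusted p under 0.05, 1 of them higher, against 17.4% of all genes tested. SCN4A, the sodium channel of skeletal muscle, rose from 0.443 and 0.289 FPKM in Control to 2.45 and 3.39 FPKM in HAND1_OE (1.51, standard error 0.228, limma adjusted p = 0.0305). It reached the filter only through HAND1_OE, and it was not called without Control replicate 1 (limma adjusted p = 0.0660), Control replicate 2 (0.0911) or HAND1_OE replicate 2 (0.0630). CACNB3, a calcium channel beta subunit and the highest of the list, was at 33.2 and 29.6 FPKM in Control, against 29.6 and 28.1 FPKM in HAND1_OE. CACNA2D1 was at 3.48 and 4.02 FPKM in Control, against 3.34 and 4.06 FPKM in HAND1_OE.

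**Figure D4:**
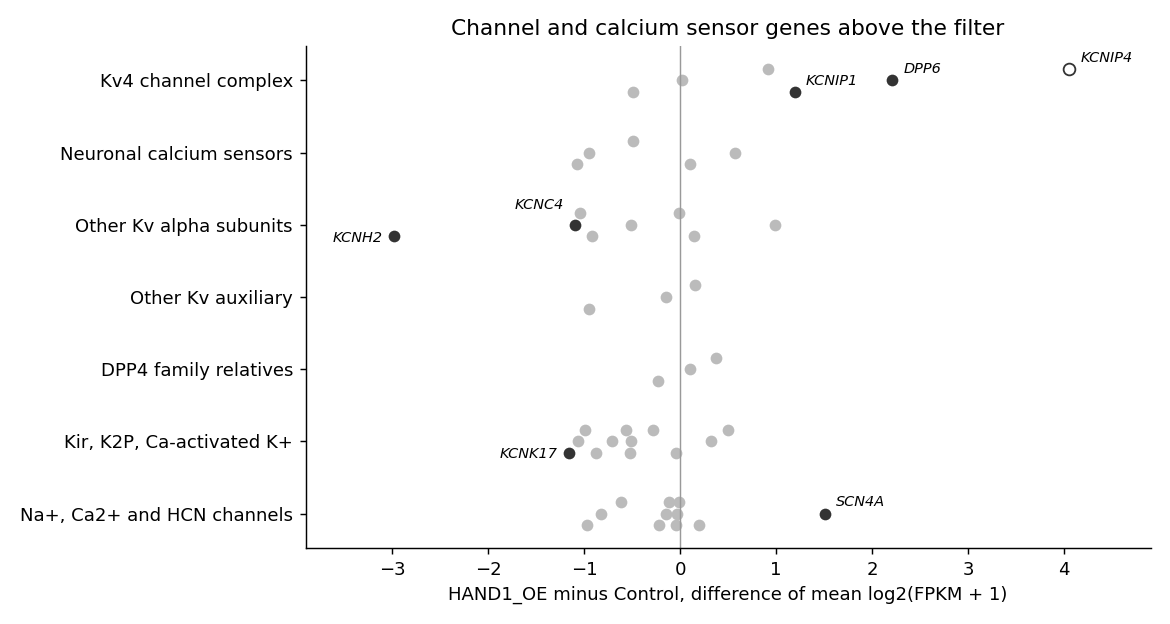
Difference between HAND1_OE and Control in mean log2(FPKM + 1) for tested genes of 7 lists, with called genes in black and named, other genes in grey and KCNIP4 as an open circle. DPP6 (2.21), SCN4A (1.51) and KCNIP1 (1.20) were called higher and KCNH2 (-2.98), KCNK17 (-1.16) and KCNC4 (-1.09) lower. DPP6, SCN4A and KCNIP1 reached the filter only through HAND1_OE.

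Because KCNIP4, KCNIP2 and DPP6 are known from neurons and heart muscle, markers of these cells were read in the same libraries. Of 10 neuron markers 2 were tested and 0 were called by limma, with 1 at an unadjusted p under 0.05, and the summed level was 22.9 and 32.3 FPKM in Control and 39.5 and 43.7 FPKM in HAND1_OE. TUBB3, a tubulin that dividing cells also express, made up most of it, at 19.0 and 24.2 FPKM in Control, against 34.9 and 39.9 FPKM in HAND1_OE (difference 0.77, limma adjusted p = 0.0882). SYT1, of synaptic vesicles, was at 1.25 to 2.11 FPKM with overlapping groups. Under 1 FPKM in all 4 libraries were 5 of the 10 markers, among them ELAVL3, listed at 0 throughout, and DCX, at 0.0236 FPKM or less. RBFOX3, which was not tested, was at 0.443 and 3.01 FPKM in Control, against 0.287 and 0.364 FPKM in HAND1_OE.

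Of 10 cardiomyocyte markers 5 were tested, 0 were called higher and 1 lower. In limma 2 had an unadjusted p under 0.05, 1 of them higher, against 17.4% of all genes tested. The summed level was 9.58 and 10.9 FPKM in Control and 8.77 and 15.96 FPKM in HAND1_OE. TNNT2 was at 1.39 and 1.64 FPKM in Control, against 3.50 and 6.37 FPKM in HAND1_OE (difference 1.20, limma adjusted p = 0.0914), and MYL7 at 3.32 and 3.43 FPKM and then at 2.28 and 3.78 FPKM. TNNI3 was the called gene (-1.22, limma adjusted p = 0.0441), at 1.83 and 1.56 FPKM in Control, against 0.196 and 0.125 FPKM in HAND1_OE. It reached the filter only through Control, so the call carries little weight. With single libraries left out its difference was -1.29 to -1.14, and it was not called. Under 1 FPKM in all 4 libraries were 4 of the 10 markers, among them NPPA at 0.133 FPKM or less. Of 5 smooth muscle markers 3 were tested and 0 were called, with 0 at an unadjusted p under 0.05, and ACTA2 was at 72.2 to 84.3 FPKM in the 4 libraries and TAGLN at 15.9 to 30.4 FPKM. The part of these cell types in the levels of KCNIP4 and DPP6 was not tested.

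Cardiac transcription factors included regulators of Kv4 genes such as IRX5. Of 9 genes 7 were tested, 0 were called higher and 1 lower. In limma 3 had an unadjusted p under 0.05, 1 of them higher, against 17.4% of all genes tested. HAND2, the close relative of HAND1, fell from 35.4 and 36.8 FPKM in Control to 7.24 and 9.09 FPKM in HAND1_OE (-2.02, limma adjusted p = 0.00730). IRX5, which represses KCND2 in heart muscle, was at 1.60 and 1.50 FPKM in Control, against 1.21 and 1.14 FPKM in HAND1_OE (-0.23, limma adjusted p = 0.652). NKX2-5 was at 40.9 and 22.9 FPKM and then at 19.6 and 14.7 FPKM (-0.82, limma adjusted p = 0.250), and GATA4 had a difference of 0.63 (limma adjusted p = 0.110).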

How the data were processed

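RNA sequencing of 4 libraries (2 Control, 2 HAND1_OE), grouped by sample title, was analysed from 1 table. The authors deposited gene values that were taken to be FPKM, the unit on a plot of these cells in the study. The submitters' processing notes name BWA, Bowtie and RSEM, without roles or versions, and hg19, whereas 56550 of 58229 genes had the coordinates of GRCh38 GENCODE 29. Starts are counted from 1. Of 58365 rows, 45 that name the Y copy of a pseudoautosomal gene were not used; another 91 repeated a gene ID, of which only the row of highest mean stayed.

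Genes that reached 1 FPKM in 2 or more libraries were tested two-sided as log2(FPKM + 1) with limma-trend (limma 3.58.1 under R 4.3.3), with p-values adjusted by the Benjamini-Hochberg method. The code was tested on simulated data. FPKM per fragment came from single-exon genes over 2000 nt with 1 transcript, which covers counting depth only. Depth limits the genes under 1 FPKM most.

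The members and lists were chosen with earlier results of these data known. Named genes are the complex, HAND1, the called genes (up to 4) and the 2 highest genes of each list. The 5 genes nearest to KCNIP4 and tested genes within 1 Mb of it are also named. In the endothelial and blood lists not all genes that fit this rule are named. KCNMB1, KCNIP2-AS1, DPP10-AS1, KCNIP4-IT1, IRX5, PECAM1, PTPRC, ELAVL3, DCX, RBFOX3 and NPPA were added after their values were seen. Some results of the lists are not reported here, and 1 tested gene is not drawn. Alternatives were a pseudocount of 0.1, other filters, quantile and median-ratio scaling, no trend, the replicate block, summed rows and each library left out, with the genes tested kept.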

Additional observations from a re-analysis of the deposited data

How the results depend on the processing

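The direction of KCNIP4 was fixed by its choice. Its log2 difference was 5.69 with a pseudocount of 0.1, and 3.97 to 4.14 with single libraries left out. It has no value with 1 FPKM required in every library. KCND1 reversed when either Control replicate 1 (-0.095) or HAND1_OE replicate 1 (-0.255) was left out, and its range with single libraries left out was -0.255 to 0.298. With 1 FPKM required in every library, only KCND1 and KCNIP2 of the complex were tested and 1 was called. The calls in the complex numbered 3 with all libraries and 2 with any one left out. These counts hold KCNIP4, which was chosen for its rise, and DPP6, which reached the filter only through HAND1_OE. They are no sign of stability.

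With all 29860 genes above 0 tested, 0 genes were called higher and 0 lower by limma, 0 of the complex and 0 of the 6 other channel and calcium sensor lists, and 3810 had an unadjusted p under 0.05. The prior degrees of freedom in limma were 1.32 there and 3.61 with the filter. With the replicate block 597 genes were called higher and 712 lower, and 12 in the 6 lists, against 299, 309 and 5 without it. The labels do not say that the replicate numbers mark a batch; deviations of same-numbered libraries from their group means correlated at 0.38 over genes. With single libraries left out, 134 to 266 genes were called higher, 137 to 309 lower, and 1 to 4 in the 6 lists. The lone library of a group was then assumed to vary like the others.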
